A study of Mus musculus with 8 samples.

Results

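The proteasome genes of the array were examined in bone marrow lymphoid progenitors that lacked either of the transcription factors E2A and HEB. The members were taken by name: every gene whose symbol in the array annotation starts with Psma, Psmb, Psmc, Psmd or Psme. The annotation lists 46 such symbols, and 44 of them have a probe set that names a single gene, out of 18193 genes with such a probe set. Each gene was represented by its brightest probe set, chosen by the highest mean over the 8 arrays, so brightness was used in the choice and is given below only as a description. The remaining pair of symbols, Psme2 and Psme2b, share 1 probe set and were kept apart. Of the 44 genes, 43 were tested, because their probe set lay above the median of its array on at least 2 arrays, and 42 lay above it on all 8.

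The cells were common lymphoid progenitors, the precursors of the lymphoid lineages, sorted from bone marrow as LIN-, FLT3+, CD127+ and LY6D-. All mice were C57BL/6, 10 to 13 weeks old, and were wild type (WT, 2 arrays), HEB-KO (2 arrays) or E2A-KO (4 arrays). The labels give neither the alleles of the knockouts nor any treatment. Each sort pooled cells from several marrows, with at least 2 sorts per genotype, so the p-values reflect how pools differ, and nothing is known of the spread over single mice. The labels do not say which E2A-KO arrays, if any, came from the same sort.

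The proteasome is the barrel-shaped protease that degrades ubiquitin-tagged proteins. Its core is built of alpha rings, which gate entry, and beta rings, which hold the catalytic sites, and it is capped by a regulatory particle with a ring of ATPases, a base and a lid that receive, unfold and deubiquitinate substrates. In lymphoid and interferon-treated cells 3 catalytic subunits can be replaced by immunoproteasome subunits, which change the peptides available for MHC class I presentation. The subunit genes are known to be induced together by the factor NRF1, encoded by Nfe2l1, when proteasome activity is short.

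Promoter sequence of 250 bases before the start of the gene was available from RefSeq (GRCm38.p6) for 37 of the 44 genes. The windows of 4 members are shown, because the first 3 had the most negative differences between E2A-KO and HEB-KO cells and the fourth, a constitutive catalytic subunit, holds the motif core bound by NRF1. Each runs 5′ to 3′ on the strand of the gene, with motif matches in capitals. In Psma1 (chr7:114276117-114276366, minus strand) the capitals mark CCAAT, the NF-Y box, or its reverse ATTGG. In Psmd10 (chrX:140956712-140956961, minus strand) they mark the same box and CAGCTG, an E-box of the kind bound by E proteins. In Psmb10 (chr8:105938393-105938642, minus strand) they mark CACGTG, the E-box of MYC. In Psmb5 (chr14:54617996-54618245, minus strand) they mark TGACNNNGC, the antioxidant response element core.
Psma1: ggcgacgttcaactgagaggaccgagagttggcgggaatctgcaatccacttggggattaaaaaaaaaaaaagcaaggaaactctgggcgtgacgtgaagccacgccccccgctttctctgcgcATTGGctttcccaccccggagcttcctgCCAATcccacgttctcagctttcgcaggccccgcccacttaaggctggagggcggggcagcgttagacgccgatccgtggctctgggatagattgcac
Psmd10: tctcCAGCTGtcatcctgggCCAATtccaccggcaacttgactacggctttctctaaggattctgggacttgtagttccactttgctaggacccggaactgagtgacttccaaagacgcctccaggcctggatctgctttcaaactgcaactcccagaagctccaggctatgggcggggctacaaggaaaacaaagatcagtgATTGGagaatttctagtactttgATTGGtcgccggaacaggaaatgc
Psmb10: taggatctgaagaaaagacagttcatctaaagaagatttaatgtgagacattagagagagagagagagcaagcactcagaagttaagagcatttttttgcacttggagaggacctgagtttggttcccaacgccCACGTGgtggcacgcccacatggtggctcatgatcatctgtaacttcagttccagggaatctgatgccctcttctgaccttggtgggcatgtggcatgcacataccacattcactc
Psmb5: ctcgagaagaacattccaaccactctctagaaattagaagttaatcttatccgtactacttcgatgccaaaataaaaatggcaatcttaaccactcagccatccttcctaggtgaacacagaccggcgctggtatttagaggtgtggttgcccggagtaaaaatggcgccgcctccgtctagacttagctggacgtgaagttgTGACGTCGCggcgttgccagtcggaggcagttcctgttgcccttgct

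Both strands were searched and matches were allowed to overlap. TGACNNNGC (reverse GCNNNGTCA) stood in 5 of 37 member windows (13.5%), those of Psmb5, Psmb6, Psmc6, Psmd12 and Psmd9, and in 11.5% of the windows of all 27025 genes. CCAAT stood in 16 member windows (43.2%) and in 37.5% of all windows. GAAANNGAA (reverse TTCNNTTTC), the core of the interferon-stimulated response element, stood in 3 member windows (8.11%) and in 8.18% of all. The E-protein E-box CAGCTG stood in 2 member windows, those of Psmd10 and Psmd4 (5.41%), and in 14.7% of all, and CAGGTG (reverse CACCTG) in 7 (18.9%) and in 19.4% of all. CACGTG stood in 5 member windows (13.5%) and in 6.86% of all. These are matches of letters and not binding sites.

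Values are log2 of the deposited intensity, and differences are between genotype means. The targeted genes went with the labels: Tcf3, which encodes E2A, lay at 3.71 to 4.28 on the E2A-KO arrays and at 7.76 to 8.57 on the others, and Tcf12, which encodes HEB, lay at 6.49 and 7.10 on the HEB-KO arrays and at 8.52 to 8.85 on the others. The median intensity of an array was 14.1 to 15.4. Of the sort markers, Flt3 lay at 10.1 to 11.05 on all arrays. Il7r, the gene of CD127, lay at 10.5 to 10.9 on the WT and HEB-KO arrays and at 7.89 to 9.04 on the E2A-KO arrays. Its log2 difference in E2A-KO cells from WT was -2.15 (adjusted p = 0.033 by limma). Cd93 and Kit, listed with them, were lower on every E2A-KO array than on any other. Their differences from WT were -1.34 (adjusted p = 0.027 by limma) and -2.08 (adjusted p = 0.082). Ly6d lay at 3.53 and 7.83 in WT, 7.52 and 3.63 in HEB-KO, and 6.75, 4.48, 4.26 and 6.88 in E2A-KO cells. Markers of granulocytes and monocytes, 8 of 9 with a probe set, were above the array median for 4 and 7 of 8 on the WT arrays, 7 and 7 on the HEB-KO arrays and 3 to 7 on the E2A-KO arrays. Their mean log2 level was 5.34 and 6.18 in WT, 6.71 and 7.89 in HEB-KO, and 5.02 to 6.94 in E2A-KO cells. S100a8, a neutrophil gene of that list, lay at 3.35 and 6.87 in WT, at 7.66 and 9.84 in HEB-KO, and at 3.69, 3.90, 8.63 and 3.11 in E2A-KO cells. Others of the list differed: Elane was -0.32 and Csf1r -0.24 in HEB-KO minus WT, and Csf1r was -1.36 in E2A-KO minus WT (adjusted p = 0.12), with all E2A-KO arrays below WT. Among erythroid genes, Car1 (8.93) and Klf1 (7.81) stood highest on E2A-KO replicate 1, and on the other arrays they lay at 3.57 to 5.15 and at 3.81 to 5.35. Of 4 measured T and NK markers 2 were above the median on every array. Of 6 measured B-lineage markers 2 to 5 were above the median of an array, and their mean log2 level was 4.27 to 5.43. Vpreb1 of that list lay at 3.78 and 8.42 in WT, 6.67 and 4.53 in HEB-KO, and 3.82 to 4.64 in E2A-KO cells. The part of other cells in the results below was not tested, and in these bulk samples fewer cells of a type and less RNA per cell cannot be told apart.

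Across the family, values tended to be highest in HEB-KO cells, while differences between E2A-KO and WT cells were split in sign, and no proteasome gene passed the test in any comparison. The median log2 intensity of the 43 tested members was 8.52 and 8.88 on the WT arrays, 9.19 and 9.07 on the HEB-KO arrays, and 8.56, 8.51, 8.47 and 8.57 on the E2A-KO arrays. The HEB-KO arrays lay above all others, and WT replicate 1 lay within the range of the E2A-KO arrays while WT replicate 2 lay above it. The group means were 8.70 ± 0.26 (SD, n = 2) for WT, 9.13 ± 0.087 (n = 2) for HEB-KO and 8.53 ± 0.049 (n = 4) for E2A-KO. With each array centred on its median the order stood, at 8.52 and 8.91, at 9.26 and 9.11, and at 8.54, 8.48, 8.41 and 8.54. The array medians, 3.82 to 3.94, lie far below these genes, so centring cannot remove differences that depend on brightness. After cyclic loess, a normalization that acts on such differences, the member medians were 8.52 and 8.72 in WT and 8.92 and 8.94 in HEB-KO. In E2A-KO they were then 8.51, 8.56, 8.65 and 8.65. The medians of all 11957 tested genes also differed between arrays, from 6.09 on E2A-KO replicate 3 to 6.62 on HEB-KO replicate 1.

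**Figure D1:**
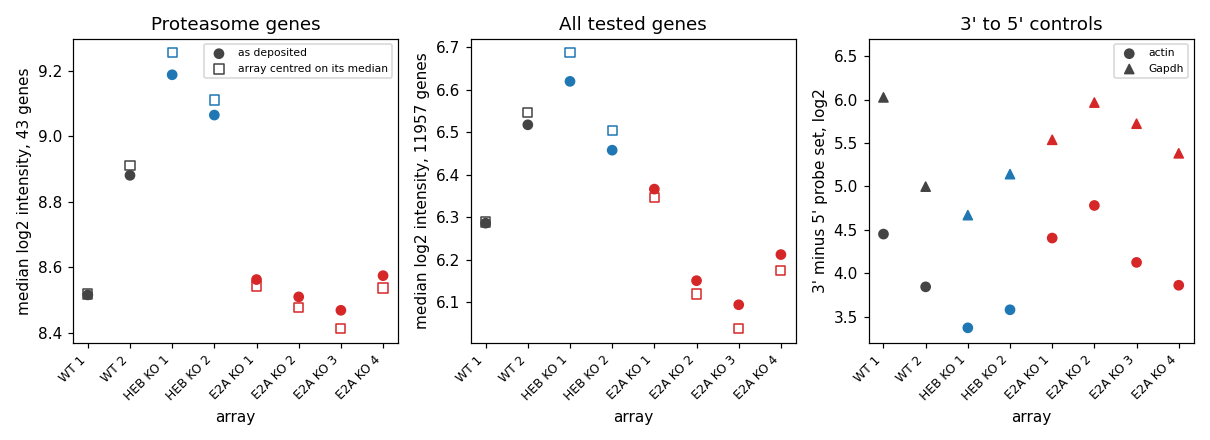
Median log2 intensity of the 43 tested proteasome genes (left) and of all 11957 tested genes (middle) on each array, and the 3′ minus 5′ log2 difference of the actin and Gapdh control probe sets (right); grey is WT, blue HEB-KO and red E2A-KO, filled circles on the left and middle are values as deposited and open squares values after centring each array on its median. The HEB-KO arrays, at 9.19 and 9.07, are highest for the proteasome genes, and the actin difference is lowest on the same arrays, at 3.37 and 3.58.

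Control values of RNA integrity moved in part with these medians. The log2 difference between the 3′ and the 5′ actin probe sets, which grows as RNA or its copies get shorter, was 4.45 and 3.84 on the WT arrays, 3.37 and 3.58 on the HEB-KO arrays, and 4.41, 4.78, 4.12 and 3.86 on the E2A-KO arrays. For Gapdh it was 6.03 and 4.998, 4.67 and 5.14, and 5.54, 5.97, 5.72 and 5.38. The arrays with the highest proteasome medians thus had the lowest actin differences. For Gapdh the order was not the same, as WT replicate 2, at 4.998, lay below HEB-KO replicate 2, at 5.14. The hybridization control lay at 11.40 and 10.29 on the WT arrays, 10.32 and 11.60 on the HEB-KO arrays, and 11.52 to 12.62 on the E2A-KO arrays. Their part in the results was not tested. With the actin difference as a covariate the medians of the members were -0.086 for E2A-KO minus WT, 0.21 for HEB-KO minus WT and -0.30 for E2A-KO minus HEB-KO. With the hybridization control as a covariate they were 0.21 with 32 of 43 positive, 0.28 with 41 positive, and -0.071 with 25 negative.

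Single arrays stood out gene by gene as well. HEB-KO replicate 1 was the highest of the 8 arrays for 25 of the 43 members (58.1%), against 21.5% of all tested genes, and 40 of 43 lay above their own mean there. E2A-KO replicate 3 was the lowest for 16 members (37.2%), against 25.9% of all tested genes. WT replicate 1 was the lowest for 10 members (23.3%), against 15.2% of all tested genes, and the highest for 0, against 8.66%. By group mean, HEB-KO was the highest genotype for 35 members (81.4%), against 44.4% of all tested genes, and the lowest for none. The 35 include Psma8, which passed the level filter on the HEB-KO arrays alone, so that its place there was fixed. E2A-KO was the lowest for 25 members (58.1%), against 48.3% of all tested genes, and WT for 18 (41.9%), against 31.998%.

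**Figure D2:**
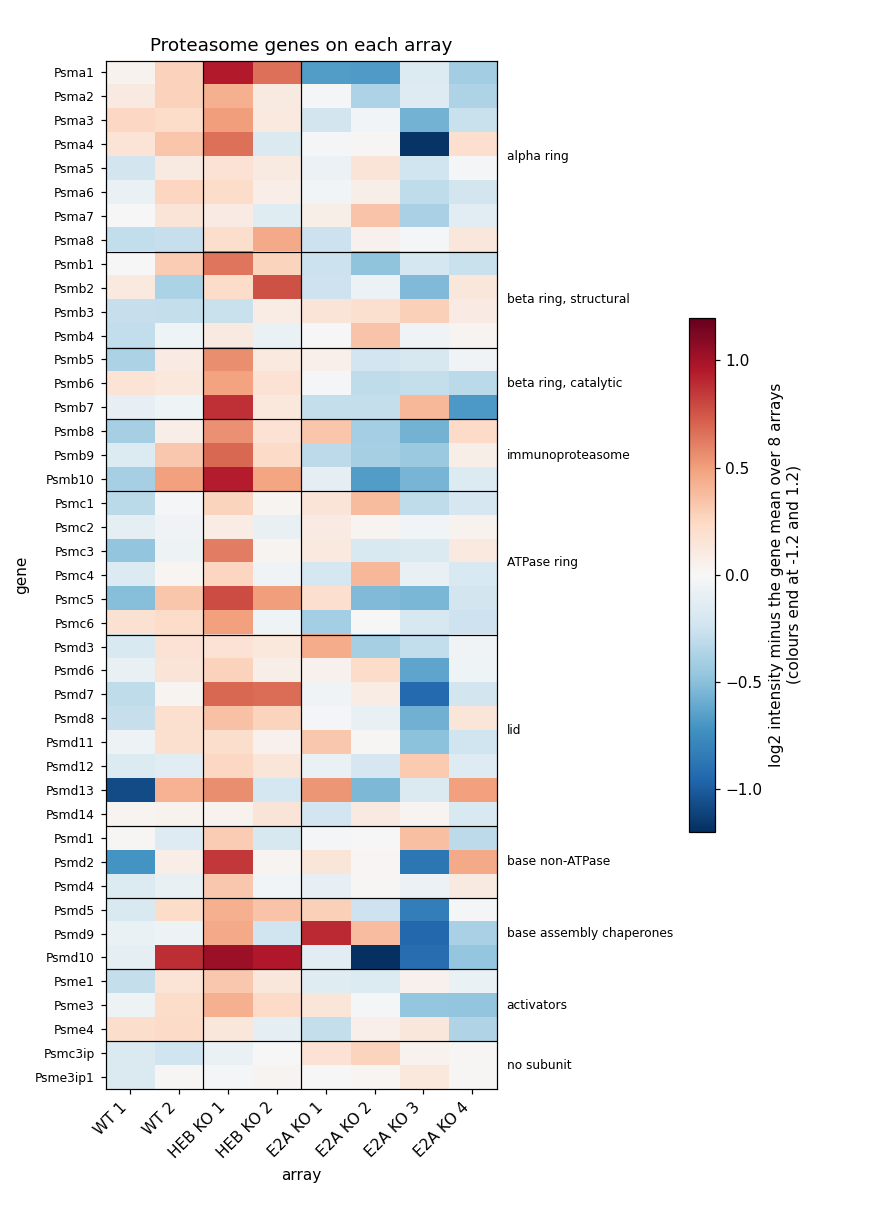
Log2 intensity of each tested proteasome gene minus its mean over the 8 arrays, with arrays in columns and genes in rows grouped by role; red is above and blue below the mean, and colours end at -1.2 and 1.2. HEB-KO replicate 1 is the highest array for 25 of 43 genes, and E2A-KO replicate 3 the lowest for 16.

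Between HEB-KO and WT cells, 40 of 43 members had a positive difference, with a median of 0.25 on the log2 scale. Over all tested genes 61.8% were positive and the median was 0.086. With each array centred, the values were 41 of 43 and 0.29, against 0.13 over all genes, and after cyclic loess, which removes differences that depend on brightness, 32 of 43 and 0.13, against 0.016. No member passed (0 of 43; limma, adjusted p under 0.05 over all genes tested), and none of the 11957 genes did (0%). At an unadjusted p under 0.05 there were 3 members, Psma1, Psma8 and Psmd7 (6.98%), against 2.61% of all genes. The arrays of the genotypes did not overlap for 20 members that were higher in HEB-KO (46.5%), against 23.4% of all genes. They did not overlap for 1 member that was lower, Psme4 (2.33%), against 11.4% of all genes. These counts include Psma8, a dim gene that passed the level filter on the HEB-KO arrays alone, so that its direction was fixed by the filter. Without it, 39 of 42 members were positive with a median of 0.22, 2 had an unadjusted p under 0.05, and 19 did not overlap and were higher. Single arrays moved these values. The median was 0.13 without WT replicate 1, with 33 members positive, 0.15 without HEB-KO replicate 1, with 32 positive, and 0.38 without HEB-KO replicate 2, with 42 positive. Without WT replicate 1 and HEB-KO replicate 1 together, which leaves 1 array in each group, 21 members were positive and 22 negative and the median was -0.0064.

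Between E2A-KO and WT cells the members were split, with 18 positive and 25 negative differences and a median of -0.091, against -0.053 over all tested genes. The median was -0.14 with each array centred, against -0.11 over all genes, and turned to 0.051 with 24 positive after cyclic loess, against 0.0014. No member passed the test, while 53 of 11957 genes did (0.443%). At an unadjusted p under 0.05 there were 3 members, Psma1, Psmb3 and Psmd10 (6.98%), against 13.4% of all genes. The arrays did not overlap for 5 members that were higher in E2A-KO, Psma8, Psmb3, Psmb4, Psmc2 and Psmc3ip, which is 11.6% against 9.98% of all genes. They did not overlap for 8 that were lower, Psma1, Psma2, Psma3, Psmb1, Psmb6, Psmc6, Psmd10 and Psme4, which is 18.6% against 15.4% of all genes. Both shares are near those of all genes. Leaving out WT replicate 1 gave a median of -0.25, and leaving out WT replicate 2 gave 0.032. Leaving out E2A-KO replicate 3 gave 0.0055.

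Between E2A-KO and HEB-KO cells, 38 of 43 members had a negative difference, with a median of -0.35, against 62.9% negative and -0.16 over all tested genes. With each array centred, 41 were negative and the median was -0.44, against -0.26. After cyclic loess 27 were negative and the median was -0.12, against -0.028, and with the hybridization control as a covariate 25 were negative and the median was -0.071, against 53.8% negative and -0.036 over all genes. No member passed, while 14 genes did (0.117%). At an unadjusted p under 0.05 there were 11 members (25.6%), against 16.5% of all genes: Psma1, Psma2, Psma3, Psmb1, Psmb2, Psmb6, Psmb9, Psmb10, Psmc5, Psmd7 and Psmd10. The arrays did not overlap for 18 members that were lower in E2A-KO (41.9%), against 21.6% of all genes. They did not overlap for 2 that were higher, Psmb3 and Psmc3ip (4.65%), against 7.82%. Without HEB-KO replicate 1 the median was -0.20 and 31 members were negative, since 12 were then positive. Without Psma8, 37 of 42 members were negative, with a median of -0.33, and 17 did not overlap and were lower. The 3 comparisons share their arrays, so these counts are not independent of each other.

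**Figure D3:**
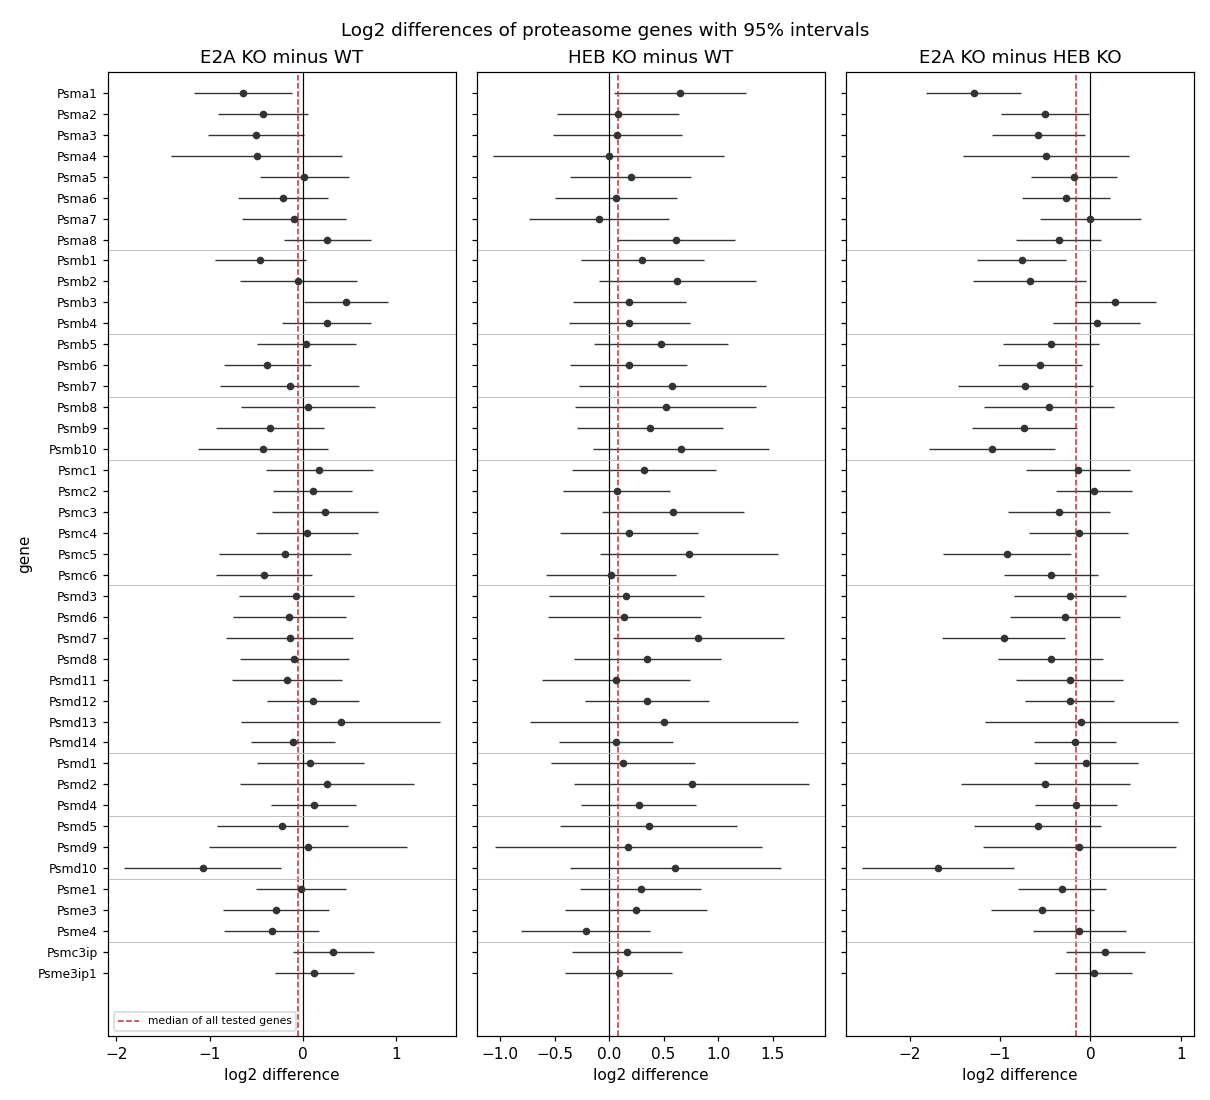
Log2 difference of each tested proteasome gene in the 3 comparisons, with 95% intervals of the limma fit; grey lines part the roles and the dashed red line marks the median of all tested genes. Points lie to the right of 0 for 40 of 43 genes in HEB-KO minus WT and to the left for 38 of 43 in E2A-KO minus HEB-KO, and none passed the adjusted threshold.

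The alpha ring gave the member with the smallest adjusted p. Psma1, a structural subunit of that ring (chr7:114264550-114276116, GRCm38.p6), lay at 8.87 and 9.10 in WT, 9.78 and 9.49 in HEB-KO, and 8.15, 8.15, 8.67 and 8.41 in E2A-KO cells. The 3 genotypes did not overlap, with HEB-KO highest and E2A-KO lowest. The difference between E2A-KO and HEB-KO was -1.29 ± 0.23 (SE), a 2.45-fold lower level in E2A-KO, with adjusted p = 0.085 by limma. It was -1.38 (adjusted p = 0.061) with arrays centred and -1.04 (adjusted p = 0.16) after cyclic loess. It passed under 2 of the alternatives, with eBayes trend and robust (adjusted p = 0.048) and with array weights (-1.35, adjusted p = 0.035). Against WT, Psma1 differed by -0.64 ± 0.23 in E2A-KO (adjusted p = 0.29) and by 0.65 ± 0.27 in HEB-KO (adjusted p = 1). A dimmer probe set of the same gene gave -0.61 for E2A-KO minus HEB-KO but -0.43 for HEB-KO minus WT, the opposite sign to the brightest.

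The other alpha genes differed less. Apart from Psma8, described below, all 7 alpha genes were lower in E2A-KO than in HEB-KO cells by mean, with a median of -0.49, and 6 of 7 were lower than in WT, with a median of -0.42. After cyclic loess the medians with Psma8 were -0.25 and -0.20. Psma3 lay at 10.83 and 10.80 in WT, 11.08 and 10.69 in HEB-KO, and 10.36, 10.54, 10.01 and 10.31 in E2A-KO cells, a difference from WT of -0.51 ± 0.23 (adjusted p = 0.38). Its E2A-KO arrays lay below all others. Psma4 differed from WT by -0.50 ± 0.40 in E2A-KO cells, with the lowest value, 6.87, on E2A-KO replicate 3. Psma7 had the smallest differences from HEB-KO, at -0.00054, and was 1 of 3 members with a negative HEB-KO minus WT value (-0.096), the others being Psma4 (-0.0049) and Psme4. Psma6 and Psma5 were among the 3 brightest members, with means over the 8 arrays of 11.4 and 11.1, and their E2A-KO minus WT differences were -0.21 and 0.014.

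Psma8, a testis-specific alpha subunit, was the dimmest tested member and came in only through the HEB-KO arrays. It lay at 3.36 and 3.38 in WT, 3.86 and 4.10 in HEB-KO, and 3.40 to 3.79 in E2A-KO cells, and was above the array median on 2 arrays, both HEB-KO. A difference in that direction was therefore bound to be found, and its value of 0.61 is given only as a description. Psmb11, the subunit of the thymoproteasome of thymic epithelium, was above the median on 0 arrays and was not tested. Its means were 2.99 in WT, 3.39 in HEB-KO and 3.17 in E2A-KO cells.

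The structural beta genes split in E2A-KO cells, 2 above and 2 below WT. Psmb3, one of the 3 brightest members, lay at 11.14 and 11.12 in WT, 11.14 and 11.49 in HEB-KO, and 11.56, 11.60, 11.70 and 11.51 in E2A-KO cells. All E2A-KO arrays were above all others. Its difference from WT, 0.46 ± 0.20 (adjusted p = 0.37), was the largest positive one among the members. A second, dimmer probe set of Psmb3 gave -0.15. Psmb4 differed from WT by 0.26 ± 0.21 (adjusted p = 0.61) and Psmb1 by -0.46 ± 0.22 (adjusted p = 0.40). Against HEB-KO, Psmb1 was -0.76 ± 0.22 (adjusted p = 0.18). A dimmer probe set of Psmb1 had the opposite sign, with 0.66 for E2A-KO minus WT and 0.76 for E2A-KO minus HEB-KO. Another dimmer one gave 0.21 and -0.085.

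The constitutive catalytic genes and their immunoproteasome replacements were all higher by mean in HEB-KO than in WT cells, and none passed. Psmb5, Psmb6 and Psmb7 encode the chymotrypsin-like, caspase-like and trypsin-like subunits. Their HEB-KO minus WT differences were 0.48 ± 0.27, 0.18 ± 0.24 and 0.58 ± 0.38, and the E2A-KO minus WT differences were 0.039, -0.38 and -0.14. Psmb6 lay at 9.995 and 9.96 in WT, 10.31 and 10.002 in HEB-KO, and 9.80, 9.53, 9.55 and 9.50 in E2A-KO cells, with the E2A-KO arrays below all others. Psmb7 lay at 6.51 and 6.55 in WT, 7.48 and 6.73 in HEB-KO, and 6.32, 6.32, 6.9965 and 5.91 in E2A-KO cells, which overlap both.

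The immunoproteasome genes had a median of -0.73 between E2A-KO and HEB-KO cells, at -0.82 with arrays centred and -0.47 after cyclic loess. Psmb10, which replaces Psmb7, lay at 7.65 and 8.54 in WT, 8.99 and 8.52 in HEB-KO, and 7.93, 7.37, 7.49 and 7.88 in E2A-KO cells. E2A-KO lay below HEB-KO on every array, and WT replicate 1 lay among the E2A-KO values. The difference was -1.08 ± 0.31, a 2.12-fold lower level in E2A-KO (adjusted p = 0.18). Psmb9, which replaces Psmb6, lay at 8.34 and 8.83 in WT, 9.19 and 8.73 in HEB-KO, and 8.19, 8.11, 8.05 and 8.57 in E2A-KO cells, a difference from HEB-KO of -0.73 ± 0.26 (adjusted p = 0.23). Psmb8, which replaces Psmb5, lay at 8.52 and 8.9996 in WT, 9.47 and 9.09 in HEB-KO, and 9.25, 8.51, 8.35 and 9.15 in E2A-KO cells. Its E2A-KO arrays spanned the range of WT, and the difference from WT was 0.058 ± 0.32 (adjusted p = 0.95).

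The immunoproteasome genes were also set against the constitutive genes they replace. The log2 value of Psmb8 minus that of Psmb5 averaged -1.04 ± 0.0045 (SD, n = 2) in WT, -0.996 ± 0.042 (n = 2) in HEB-KO and -1.02 ± 0.33 (n = 4) in E2A-KO cells. As different probe sets have different brightness, only the change between genotypes can be read, and it was 0.043 for HEB-KO and 0.019 for E2A-KO against WT. For Psmb9 minus Psmb6 the changes were 0.20 and 0.027, and for Psmb10 minus Psmb7 they were 0.082 and -0.28. Each E2A-KO change was smaller than the SD among the E2A-KO arrays, which was 0.33, 0.30 and 0.65 for the 3 pairs.

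**Figure D4:**
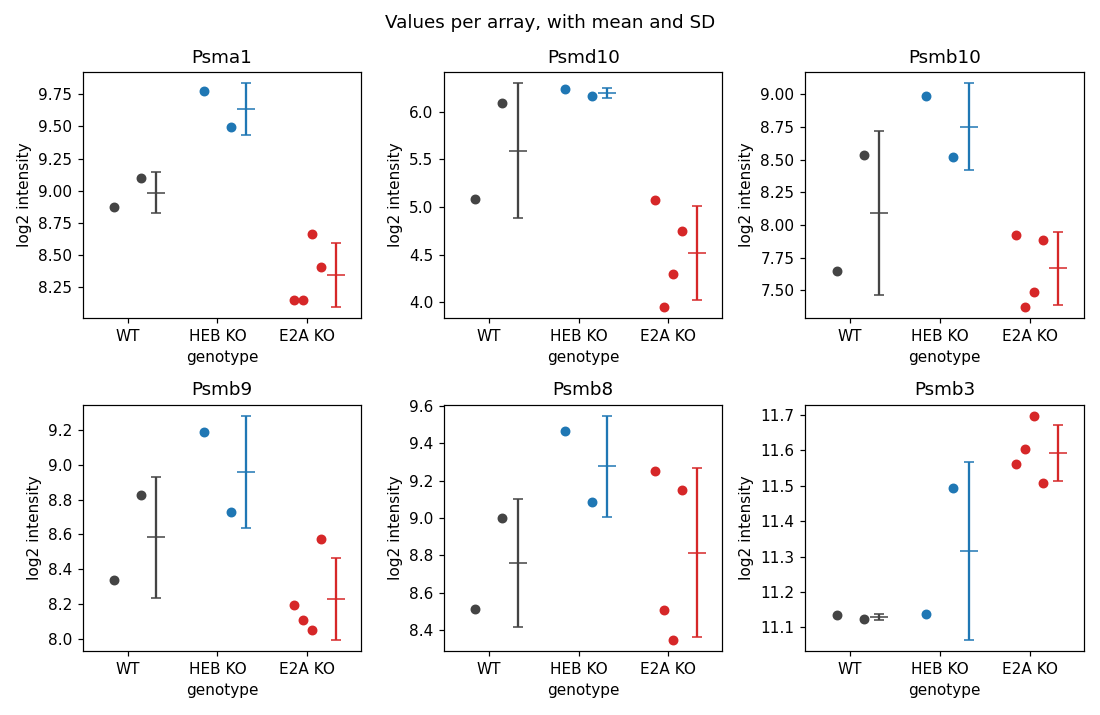
Log2 intensity of 6 proteasome genes on each array (points) by genotype, with the mean and SD of the 2 WT, 2 HEB-KO and 4 E2A-KO arrays beside them; each panel has its own axis, which does not start at 0. Psma1 values of the 3 genotypes do not overlap. Psmb8 values of E2A-KO cells overlap those of WT and of HEB-KO cells, which do not overlap each other. Psmb3 is highest in E2A-KO cells.

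In the regulatory particle the ATPase ring was near WT in E2A-KO cells, with a median of 0.080 over 6 genes, and above WT in HEB-KO cells for all 6, with a median of 0.25. After cyclic loess 4 of 6 were above WT in HEB-KO cells, with a median of 0.15, and 4 of 6 in E2A-KO cells, with a median of 0.20. Psmc5, an ATPase of that ring, lay at 6.45 and 7.29 in WT, 7.74 and 7.45 in HEB-KO, and 7.15, 6.43, 6.40 and 6.73 in E2A-KO cells. Its HEB-KO arrays lay above all others, and the difference of E2A-KO from HEB-KO was -0.92 ± 0.31 (adjusted p = 0.22). Psmc2, also an ATPase, varied least of all members, with a residual SD of 0.072 between arrays of a genotype, and differed by 0.11 in E2A-KO and 0.070 in HEB-KO cells from WT. Psmc6 was -0.42 ± 0.23 against WT in E2A-KO cells (adjusted p = 0.46).

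The 8 lid genes were all above WT by mean in HEB-KO cells, with a median of 0.25, and all below HEB-KO in E2A-KO cells, with a median of -0.23, against -0.16 over all tested genes. After cyclic loess 6 of 8 were above WT in HEB-KO cells, with a median of 0.13, and between E2A-KO and HEB-KO cells 4 were positive and 4 negative, with a median of 0.0053. Psmd7, the partner of the deubiquitinase Psmd14 in the lid, lay at 5.12 and 5.46 in WT, 6.12 and 6.10 in HEB-KO, and 5.39, 5.52, 4.50 and 5.21 in E2A-KO cells. Both HEB-KO arrays lay above the rest. Its HEB-KO minus WT difference of 0.82 ± 0.35, 1.76-fold, was the largest among the members (adjusted p = 1), and a dimmer probe set gave -0.53. Psmd14 itself differed by 0.061 in HEB-KO and -0.11 in E2A-KO cells. Psmd13, another lid subunit, varied most of all members, with a residual SD of 0.67, from 6.53 on WT replicate 1 to 8.16 on HEB-KO replicate 1. Over the members the median residual SD was 0.25, against 0.33 over all tested genes.

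The 3 members that are base subunits but not ATPases were all above WT by mean in E2A-KO cells, with a median of 0.12. After cyclic loess the median was 0.25, against 0.0014 over all tested genes. Psmd2, a scaffold that docks ubiquitin receptors, lay at 8.32 and 9.12 in WT, 9.88 and 9.07 in HEB-KO, and 9.18, 9.06, 8.17 and 9.49 in E2A-KO cells. The genotypes overlapped, and its HEB-KO minus WT difference was 0.76 ± 0.47 (adjusted p = 1).

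Of the 3 members that are chaperones of base assembly, Psmd10 had the largest differences of E2A-KO cells from WT and from HEB-KO cells in the family. Psmd10, also called gankyrin (chrX:140948425-140956711), lay at 5.09 and 6.09 in WT, 6.24 and 6.16 in HEB-KO, and 5.08, 3.95, 4.29 and 4.74 in E2A-KO cells. E2A-KO replicate 1, at 5.08, lay just below WT replicate 1, at 5.09, and HEB-KO lay above both groups. The difference was -1.68 ± 0.37 from HEB-KO, 3.21-fold lower (adjusted p = 0.12), and -1.07 ± 0.37 from WT, 2.11-fold lower (adjusted p = 0.27). Arrays centred gave -1.78 and -1.13, and cyclic loess -1.62 and -1.06. Psmd10 was the only member at least 2-fold apart between E2A-KO and WT, and between E2A-KO and HEB-KO there were 3, with Psma1 and Psmb10. No member was 2-fold apart between HEB-KO and WT. The share of all tested genes at least 2-fold apart was not computed, so these counts are only a description. By its brightest probe set, Psmd9 varied from 5.21 to 7.06 among the E2A-KO arrays, and its differences were within 0.18 in all comparisons. Dimmer probe sets of Psmd9 gave 1.15 and 0.29 for E2A-KO minus HEB-KO and -0.76 and -0.27 for HEB-KO minus WT. For E2A-KO minus WT they gave 0.39 and 0.028.

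Among the activators, which open the core without ubiquitin, Psme1, the alpha subunit of the interferon-inducible cap, differed by -0.024 ± 0.21 in E2A-KO and 0.29 ± 0.25 in HEB-KO cells from WT. The probe set shared by Psme2 and Psme2b lay at 8.86 and 9.16 in WT, 9.39 and 9.21 in HEB-KO, and 8.64, 8.35, 8.05 and 9.14 in E2A-KO cells, with differences from WT of -0.47 in E2A-KO and 0.29 in HEB-KO cells that cannot be assigned to either gene. By its brightest probe set Psme4, a large single-chain activator, was the member most below WT in HEB-KO cells. It lay at 8.39 and 8.41 in WT, 8.32 and 8.06 in HEB-KO, and 7.89, 8.24, 8.32 and 7.82 in E2A-KO cells. Its difference was -0.21 ± 0.26 in HEB-KO (adjusted p = 1) and -0.33 ± 0.23 in E2A-KO cells (adjusted p = 0.55). A dimmer probe set of Psme4 that passed the level filter had the opposite sign, with 0.26 for HEB-KO minus WT. Both its HEB-KO arrays lay above both WT arrays. Another gave -0.97, and the remaining probe set that passed was also below WT by mean. Psmc3ip, a factor of meiotic recombination, and Psme3ip1, a partner of the nuclear activator Psme3, carry the symbols but are no subunits. They differed from WT by 0.33 ± 0.19 and 0.12 ± 0.19 in E2A-KO cells. Without them 38 of 41 members were positive in HEB-KO minus WT, with a median of 0.27.

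The choice of probe set mattered for the sign. Of 91 probe sets of the 44 genes, 32 besides the brightest passed the level filter, in 21 genes. Their difference had the sign of the brightest probe set in 22 of 32 for E2A-KO minus WT, 19 of 32 for HEB-KO minus WT and 19 of 32 for E2A-KO minus HEB-KO. None of the member probe sets passed the test (0 in each comparison). For Psmb8, a dimmer probe set gave 0.59 for E2A-KO minus WT, where the brightest gave 0.058.

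Other genes of the pathway were taken from lists by role, and none passed in any comparison. Of the 6 tested assembly and inhibitor genes all were above WT by mean in HEB-KO cells, with a median of 0.50 (4 of 6 and 0.38 after cyclic loess), and 3 were above WT in E2A-KO cells. Pomp, the chaperone that completes the core, lay at 7.61 and 8.47 in WT, 8.97 and 8.001 in HEB-KO, and 7.64 to 7.92 in E2A-KO cells. Of 9 ubiquitin and delivery genes, 8 were positive in HEB-KO minus WT, with a median of 0.32, and 4 in E2A-KO minus WT, with a median of -0.086. Of 6 further subunits and partners, 5 and 2 were positive. Of 10 transcription control genes, 8 and 7 were positive, with medians of 0.13 and 0.054. Nfe2l1 differed from WT by 0.0033 ± 0.24 in HEB-KO and by 0.22 ± 0.21 in E2A-KO cells (adjusted p = 0.67).

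Ngly1, the glycanase that processes NRF1, had the smallest p of the transcription control list. It lay at 7.57 and 7.91 in WT, 8.11 and 8.09 in HEB-KO, and 6.95, 7.04, 6.16 and 6.32 in E2A-KO cells. All E2A-KO arrays lay below all others, and the difference was -1.12 ± 0.30 from WT (adjusted p = 0.15) and -1.48 ± 0.30 from HEB-KO (adjusted p = 0.10).

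The class I presentation genes, which act on the peptides the proteasome makes, were below WT by mean in E2A-KO cells for 12 of 13, with a median of -0.57, which was -0.62 with arrays centred and -0.44 with 9 of 13 negative after cyclic loess. H2-K1, a class I heavy chain, lay at 11.33 and 11.46 in WT, 11.53 and 11.50 in HEB-KO, and 10.36, 10.04, 10.72 and 10.79 in E2A-KO cells, a difference from WT of -0.92 ± 0.25 (adjusted p = 0.17). B2m, its light chain, differed by -0.77 ± 0.23 (adjusted p = 0.20) and Irf1, an interferon-regulated factor, by -0.75 ± 0.20 (adjusted p = 0.16). Their E2A-KO arrays lay below all others. In HEB-KO cells 10 of 13 were above WT, with a median of 0.12.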

How the data were processed

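Gene expression was measured on 8 Affymetrix arrays in pooled sorted cells. Per the labels, RNA was prepared with RNeasy Micro and amplified in more than 1 round. Intensity per probe set was computed by the authors with RMA, per the submitters' processing notes, and deposited on a linear scale, as the values show. No source used here gives the RMA version. Every column matched a sample (0 unmatched). The number of arrays limits the precision.

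Log2 was taken. Probe sets naming a single gene were kept (34945 of 45101). Genotype means were estimated from the 8 arrays together with limma 3.58.1 (R 4.3.3), with 5 residual degrees of freedom, two-sided, Benjamini-Hochberg adjusted over 11957 genes, threshold 0.05. Code was tested on simulated data. Tables and plots used Python 3.11.15, pandas 2.3.3 and matplotlib 3.10.9.

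The members and lists were chosen with earlier results of these data known, so no list was tested. Named were the immunoproteasome, activator and catalytic genes, any called member, the 4 largest differences each way per comparison, the 3 brightest and 3 dimmest members and the non-subunits. Other members and pathway genes (Psma2, Psmb1, Psmb2, Psmd9, Psmd14, Pomp, Nfe2l1, B2m and others) were named after their values were seen. Gene names came from the platform annotation, which can be old. Alternatives were other normalizations, filters, probe set rules and fits, covariates, a replicate block and leaving out arrays. Those of the actin difference, the crossed pairing and WT 1 with HEB_KO 1 left out were chosen after seeing the data.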

Additional observations from a re-analysis of the deposited data

Results flagged for a closer look

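Within the 4 E2A-KO arrays, the gap of the farthest array to the nearest other one, as a share of the range, exceeded Dixon's 95% critical value for 4 samples for 2 of 43 proteasome genes. Chance flags about 1 in 20 groups, and 2 of 43 is near that rate. For Psma4, a subunit of the alpha ring, E2A-KO replicate 3 lay at 6.87 and the others at 8.03 to 8.26 (ratio 0.838). For Psmb6, the caspase-like subunit, E2A-KO replicate 1 lay at 9.80 and the others at 9.50 to 9.55 (ratio 0.848).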

How the results depend on the processing

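The number of proteasome genes called was 0 under every alternative run in each comparison, except that 1 (Psma1, E2A-KO minus HEB-KO) was called with eBayes trend and robust and 1 with array weights. The median of the members for E2A-KO minus WT (-0.091) became 0.051 with cyclic loess, 0.21 with the hybridization control as a covariate and -0.25 with WT 1 and HEB_KO 1 both left out. For HEB-KO minus WT (0.25) it became -0.0064 with both left out. For E2A-KO minus HEB-KO (-0.35) it became -0.12 with cyclic loess, -0.071 with the hybridization control and -0.20 with both left out. The cause was not tested. Leaving out 1 array at a time gave -0.25 to 0.032, 0.13 to 0.38 and -0.47 to -0.20. Over all genes the calls ran from 1 (hybridization control) to 120 (array weights) for E2A-KO minus WT, where the main count was 53, and from 0 (both left out) to 91 (array weights) for E2A-KO minus HEB-KO, where it was 14. They were 0 throughout for HEB-KO minus WT, where 312 genes had an unadjusted p under 0.05. Of 1739 values of named members under alternatives, 112 changed sign, none of them called, 176 moved by over 1 residual SD and 2 were called.

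The labels do not say whether a replicate number marks a shared sort. The difference between arrays 1 and 2 correlated at -0.28 (WT and HEB-KO), -0.16 (WT and E2A-KO) and 0.082 (HEB-KO and E2A-KO) over 11957 genes. With 1 such difference per genotype, the correlations cannot show whether same-numbered arrays shared a sort. With a replicate block on the 6 arrays numbered 1 and 2, 0 members were called, the medians were 0.026, 0.25 and -0.34, and calls over all genes were 12, 0 and 3, against 59, 0 and 3 without the block on the same arrays. With the numbers crossed between WT and HEB-KO, 0 genes were called.

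With 2 arrays in a group, a difference had a median SE of 0.25 for the members between E2A-KO and WT and 0.28 between HEB-KO and WT. Where an array left out leaves 1 in its group, that array is assumed to vary like the others.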
